A study of Mus musculus with 4 samples.

Results

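The transcription factor genes Gata4, Gata6, Sox7, Sox17, Hnf4a, Foxa1 and Foxq1 were followed between 2 days of a mouse embryonic stem cell culture. They were taken as regulators of extra-embryonic endoderm, with earlier results of these data known. Every probe set that the platform annotation assigned to a single symbol equal to one of them was described. All 7 were measured, by 16 of the 45037 non-control probe sets, and they are 7 of the 18193 genes on the array with such a probe set. For values per gene, the probe set that was brightest on average over the 4 arrays was used.

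Total RNA, labelled with biotin, was measured on 4 Affymetrix arrays. The groups were 2 samples of epiblast-like tissue at day 3 and 2 samples of embryonic stem cells at day 0 of SFEBq, a serum-free culture in which dissociated cells re-aggregate quickly and float. The labels give all samples the same cell type, differentiated mouse embryonic stem cells, and no line, strain, genotype or agent. Nothing says that the duplicates came from separate cultures, so the p-values reflect the spread of these samples alone, perhaps a technical one, and the small number of arrays limits the precision. Day of culture, medium and aggregation changed together and cannot be told apart.

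Extra-embryonic endoderm forms in the blastocyst as primitive endoderm, which gives rise to the visceral endoderm that surrounds the epiblast and to the parietal endoderm that lines the yolk cavity. In the mouse, Gata6, a zinc finger factor, is needed for primitive endoderm and acts early. Gata4, Sox17 and Sox7 are switched on after it, and Hnf4a and the Foxa factors belong to the later, secretory visceral endoderm. Most of these factors also work elsewhere, Gata4 and Gata6 in the heart, Sox7 and Sox17 in endothelium, and Foxa1 and Hnf4a in gut and liver.

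Markers of both labelled states moved as their lists are named. All 10 genes of a naive pluripotency list were lower at day 3 than at day 0 (limma, adjusted p under 0.05). All 7 genes of an epiblast list were higher by the same test. Both lists were chosen with earlier results of these data known, so these counts are no independent check of the labels. Over all genes, 21.4% were called lower and 20.9% higher. As a measure of RNA integrity, the Gapdh control was brighter at its 3' than at its 5' end by 0.497 and 0.542 log2 units at day 3 and by 0.680 and 0.357 at day 0, and the Actb control by 1.23 and 1.21 at day 3 and 1.27 and 1.04 at day 0. Over all genes the duplicates differed by a median of 0.093 log2 units at day 3 and 0.102 at day 0, and 95% of genes differed by less than 0.337 and 0.381.

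Of the 7 genes, 5 were called higher at day 3, 0 were called lower and 2, Gata6 and Foxa1, were not called (limma, Benjamini-Hochberg adjusted p under 0.05 over all genes). The background was a share of 20.9% of all genes called higher, 21.4% called lower and 42.3% called in either direction. The median log2 difference, day 3 minus day 0, was 1.03 for the 7 genes and 0.01 for all genes. Called rises with an estimate of at least 2-fold were found for Gata4, Sox7, Sox17, Hnf4a and Foxq1, while 5.93% of all genes had one. For Gata4, Sox17 and Foxq1 the 95% intervals also held rises under 2-fold, with lower ends of 0.79, 0.80 and 0.81 (log2). For 6 of the 7 genes, all but Gata6, the values of the 2 days were free of overlap, against 69% of all genes. Since the 7 genes were chosen with earlier results of these data known, these counts are no independent comparison with the background. By size the differences ran from Hnf4a (1.70) and Sox7 (1.37) through Foxq1, Sox17 and Gata4 (1.03 each) to Foxa1 (0.32) and Gata6 (-0.25). The 95% intervals of neighbours in this order overlapped, apart from those of Gata4 and Foxa1 and those of Foxa1 and Gata6. In samples of whole cultures, a change in the share of cells that express a gene and a change in its RNA per cell cannot be told apart.

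**Figure D1:**
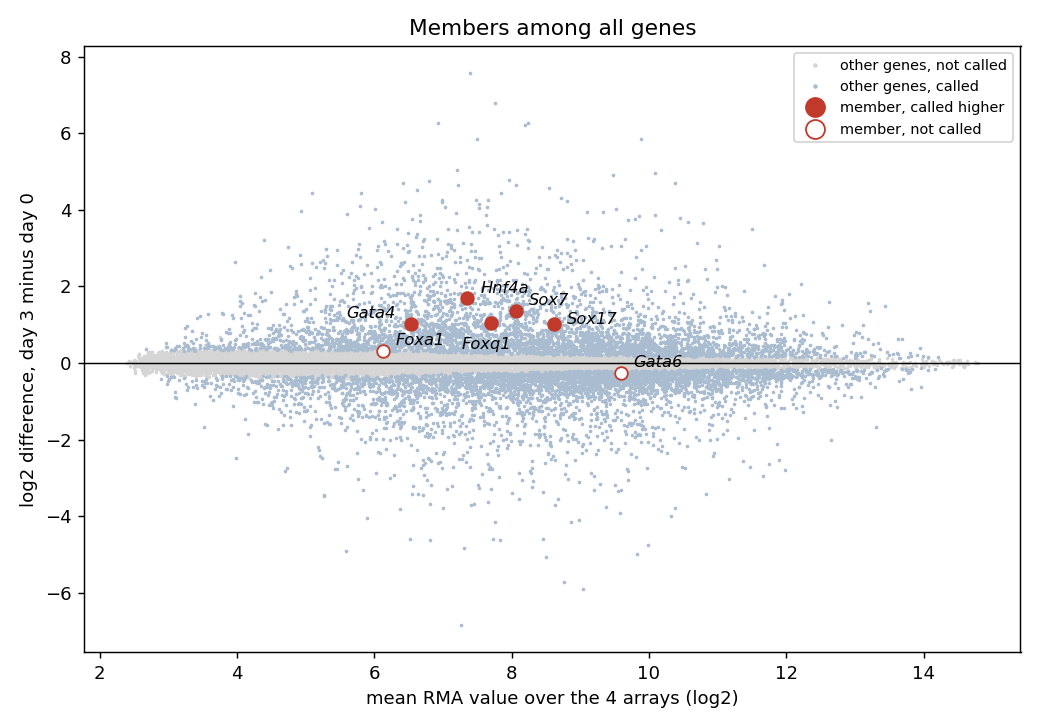
The log2 difference of every gene (vertical axis, day 3 minus day 0) is plotted against its mean log2 value over the 4 arrays, with 1 probe set per gene, small grey or blue points for other genes that were not called or called, and large red points for the 7 endoderm factor genes. The 5 filled red points lie between 1.03 and 1.70, and the open points of Foxa1 and Gata6 lie at 0.32 and -0.25.

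Of Gata4 and Gata6, Gata6 had no called difference. Its brightest probe set, 1425464_at, had log2 values of 9.32 and 9.60 in the day 3 samples and 9.86 and 9.56 in the day 0 samples. The days overlapped, with day 0 replicate 2 lying between the day 3 arrays. The difference was -0.25 ± 0.11 (SE), with a 95% interval of -0.51 to 0.01 and an adjusted p of 0.11 (limma), so a rise of 2-fold lies outside the interval. Without day 0 replicate 2 the difference was -0.40 and was called (adjusted p = 0.0029 in limma), while without another array it ran from -0.39 to -0.10 with adjusted p-values of 0.079 to 0.62.

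A second Gata6 probe set, 1425463_at, had 7.28 and 7.29 at day 3 and 7.59 and 7.52 at day 0. Here both day 3 arrays were below both day 0 arrays, by -0.27 ± 0.10 (SE, limma adjusted p = 0.064 over all probe sets). It was called after quantile normalization was applied again (-0.31, adjusted p = 0.036) and among probe sets above the median level (adjusted p = 0.037). The third, 1443081_at, lay under the arrays' mean first quartile (4.32) at day 3 and day 0, at 3.81 and 3.67 for day 3 and 3.87 and 3.81 for day 0, where a change could hardly be seen.

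Gata4, the close relative that follows Gata6 in primitive endoderm, rose. Probe set 1418863_at had 7.05 in both day 3 samples and 6.01 and 6.04 in the day 0 samples, so the days were well apart and the duplicates nearly equal. The difference was 1.03 ± 0.11 (SE), a 2.04-fold higher value at day 3 (limma adjusted p = 1.9e-05). Probe set 1418864_at showed no such step, with 4.39 and 4.21 at day 3 and 4.29 and 4.32 at day 0 and a difference of -0.01, far from a call (adjusted p = 0.98 over all probe sets). Its mean was under the arrays' first quartile at day 3 and day 0, so the 2 probe sets of Gata4 disagree with one of them at a level that no detection call separates from background.

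Sox7 and Sox17, of the SoxF group of HMG-box proteins that bind DNA in the minor groove, both rose. Sox7 had 8.62 and 8.88 at day 3 and 7.38 in both day 0 samples by probe set 1416564_at. Every day 3 array was higher, and the difference was 1.37 ± 0.10 (SE), or 2.59-fold (limma adjusted p = 1.5e-06). The other Sox7 probe set, 1432495_at, was near the arrays' first quartile, at 4.29 and 4.58 for day 3 and 4.56 and 4.19 for day 0, and was not called (difference 0.06, adjusted p = 0.83).

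Sox17, needed in the mouse for definitive endoderm and active in primitive endoderm, was read as higher by both of its probe sets. The brighter, 1429177_x_at, had 8.98 and 9.28 at day 3 and 8.10 in both day 0 samples, a difference of 1.03 ± 0.10 (SE, limma adjusted p = 1.5e-05). Its suffix marks probes that may bind other transcripts. The probe set 1421657_a_at, without that mark, had 7.92 and 8.07 at day 3 and 7.30 and 7.43 at day 0. Its rise was smaller, 0.63 ± 0.10 (SE, adjusted p = 0.0011 over all probe sets), or 1.54-fold, and the days again did not overlap.

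**Figure D2:**
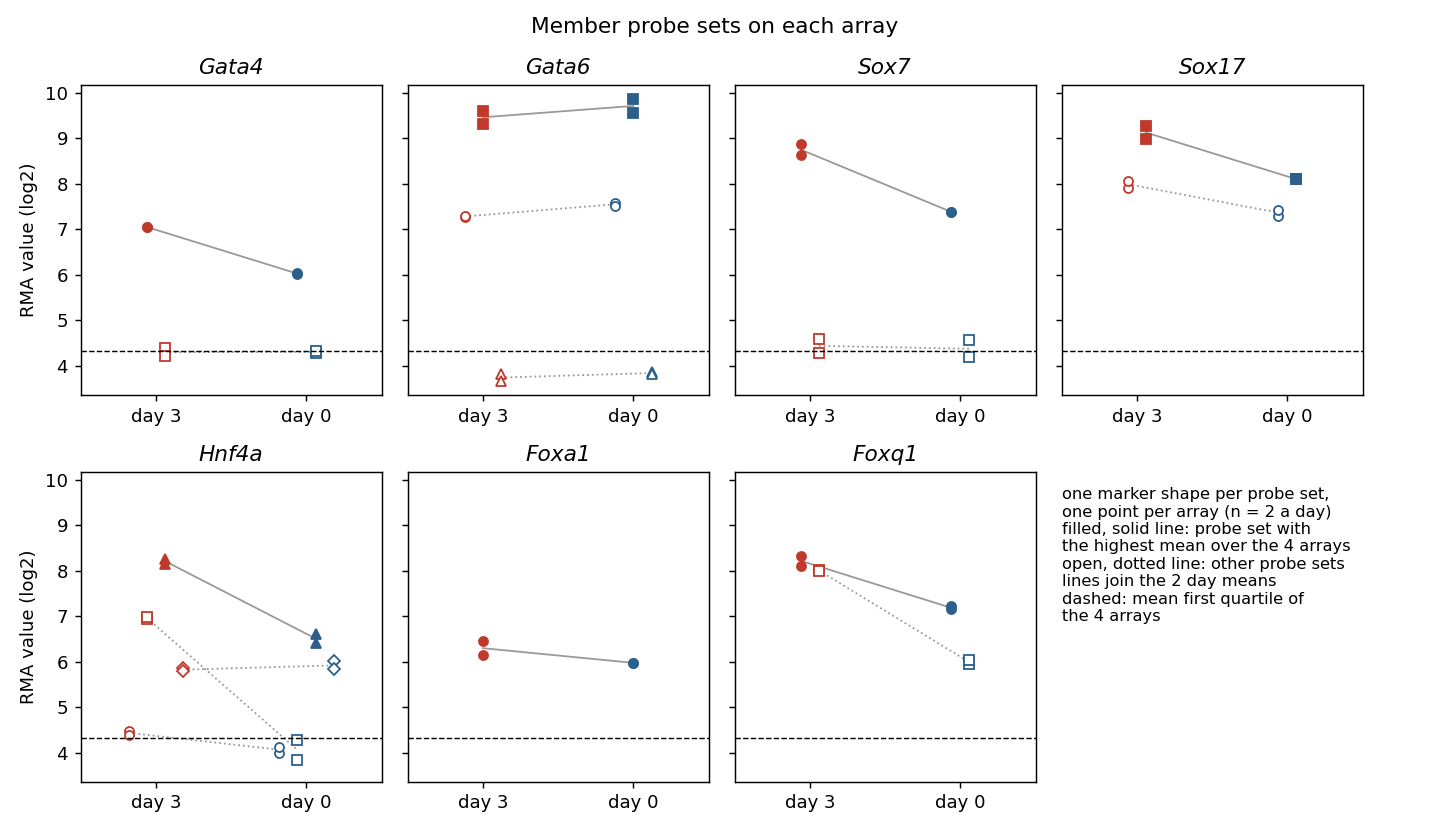
Each panel shows 1 gene, with the log2 value of each array (vertical axis) at day 3 on the left in red and day 0 on the right in blue. Marker shapes separate probe sets, filled markers and solid lines mark the probe set with the highest mean, lines join day means (n = 2 each), and the dashed line is the arrays' mean first quartile of 4.32. None of the 3 Gata6 probe sets was called, while 1 of 2 probe sets of Gata4 and Sox7, both of Sox17 and Foxq1, and 2 of 4 of Hnf4a stand higher at day 3 with adjusted p under 0.05.

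Hnf4a, a nuclear receptor that drives genes of secreted lipoproteins and transport proteins in visceral endoderm and liver, had the largest rise of the 7 genes by the probe sets kept. Averaged over all probe sets Foxq1 was ahead (1.53 against 1.22). Without probe sets ending in _x_at or _s_at, Hnf4a was represented by 1450447_at (-0.09) and Sox7 was ahead (1.37). Its probe set 1427000_at, which has neither suffix and rose by 2.90, was dimmer on average and so did not stand for the gene there. Probe set 1427001_s_at had 8.26 and 8.15 at day 3 and 6.60 and 6.41 at day 0. The difference was 1.70 ± 0.11 (SE), or 3.25-fold (limma adjusted p = 4.2e-07), and it ranked 452 among the rises of all 18193 genes. Probe set 1427000_at was also called, with 6.93 and 6.99 at day 3 and 3.83 and 4.29 at day 0. That is a change of 2.90 ± 0.16 (SE, adjusted p = 7.0e-07 over all probe sets), from day 0 values below the arrays' first quartile, where the level cannot be told from background, so the size of this change is uncertain.

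The other 2 Hnf4a probe sets were not called. On 1450447_at the values were 5.86 and 5.78 at day 3 and 6.01 and 5.83 at day 0, with overlapping days and a difference of -0.09 ± 0.13 (SE, adjusted p = 0.65). This is above the arrays' first quartile, unlike the dim second probe sets of Gata4 and Sox7, but near the arrays' medians of 5.78 to 5.79. No detection call shows that 1450447_at reads signal above background. Probe set 1421983_s_at had 4.47 and 4.39 at day 3 and 4.0 and 4.12 at day 0, a difference of 0.37 ± 0.13 that was not called (adjusted p = 0.051) and was called without the intensity trend (adjusted p = 0.033). When probe sets with the suffixes for shared or cross-reacting probes were left out, the gene was represented by 1450447_at, so its difference became -0.09 and was not called (limma adjusted p = 0.60). The called probe set 1427000_at also lacks these suffixes, but its mean over the 4 arrays was lower than that of 1450447_at. Which part of the transcript each probe set reads was not analysed here.

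RefSeq lists 2 separate starts of Hnf4a on the plus strand of chromosome 2, 40.3 kb apart, and the 300 bases around each (250 before the start, 50 from it on) are shown because its probe sets differed most. The build is GRCm38.p6, and the windows are chr2:163506607-163506906 for the upstream start and chr2:163546905-163547204 for the downstream start. Capitals mark matches on either strand to any of 4 short motifs, AGATAA for GATA factors, TGTTTAC for forkhead factors, ACAATG for SOX factors and CAAAGTCCA for HNF4.
Hnf4a upstream start: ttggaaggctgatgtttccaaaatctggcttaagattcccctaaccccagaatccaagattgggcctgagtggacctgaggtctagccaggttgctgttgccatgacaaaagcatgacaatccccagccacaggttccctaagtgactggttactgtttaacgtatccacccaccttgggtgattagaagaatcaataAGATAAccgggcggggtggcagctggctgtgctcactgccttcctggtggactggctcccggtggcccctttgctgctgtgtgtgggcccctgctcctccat
Hnf4a downstream start: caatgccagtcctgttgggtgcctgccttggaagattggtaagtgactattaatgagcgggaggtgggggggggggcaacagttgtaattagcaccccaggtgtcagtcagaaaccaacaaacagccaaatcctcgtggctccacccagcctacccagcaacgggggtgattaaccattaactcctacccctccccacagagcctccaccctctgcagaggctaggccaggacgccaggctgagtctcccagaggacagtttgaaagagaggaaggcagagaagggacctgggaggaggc
The upstream window held 1 AGATAA, from 52 to 47 bases before the start, and the downstream window held none of the 4 motifs. Of 32544 distinct windows of the same length, 11.2% held AGATAA, 3.66% TGTTTAC, 12.4% ACAATG and 0.479% CAAAGTCCA. A match describes letters only.

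Foxa1, a forkhead factor that can open closed chromatin in endoderm, had 6.45 and 6.14 at day 3 and 5.97 and 5.98 at day 0 on its single probe set, 1418496_at. Both day 3 arrays were higher, but they differed from each other by 0.31, close to the difference between days of 0.32 ± 0.13 (SE, 95% interval 0.03 to 0.61, limma adjusted p = 0.073). It was called without day 3 replicate 2 (0.48, adjusted p = 0.044), and without another array adjusted p-values reached 0.44. The window of its start, chr12:57546062-57546361 on the minus strand of GRCm38.p6 (RefSeq), is shown because it is the one other window of these genes analysed here.
Foxa1 start: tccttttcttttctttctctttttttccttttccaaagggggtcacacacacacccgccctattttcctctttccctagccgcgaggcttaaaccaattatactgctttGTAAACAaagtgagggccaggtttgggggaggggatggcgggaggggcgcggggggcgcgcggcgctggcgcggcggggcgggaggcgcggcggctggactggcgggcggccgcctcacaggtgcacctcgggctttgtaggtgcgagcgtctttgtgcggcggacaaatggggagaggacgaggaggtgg
Capitals mark 1 match to the forkhead motif TGTTTAC, read on the opposite strand as GTAAACA, from 141 to 135 bases before the start.

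Foxq1, a forkhead factor known in the mouse from hair and stomach, rose on both probe sets. The brighter over the 4 arrays, 1422735_at, had 8.32 and 8.11 at day 3 and 7.21 and 7.15 at day 0, a difference of 1.03 ± 0.10 (SE, limma adjusted p = 1.3e-05). Probe set 1438558_x_at had 8.01 and 8.0 at day 3 and 5.94 and 6.03 at day 0. It rose by 2.02 ± 0.10 (SE, adjusted p = 4.2e-07 over all probe sets), or 4.06-fold, with the caution that its suffix marks probes that may bind other transcripts. The sizes of the 2 probe sets had 95% intervals that did not overlap, 0.80 to 1.27 and 1.79 to 2.25.

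**Figure D3:**
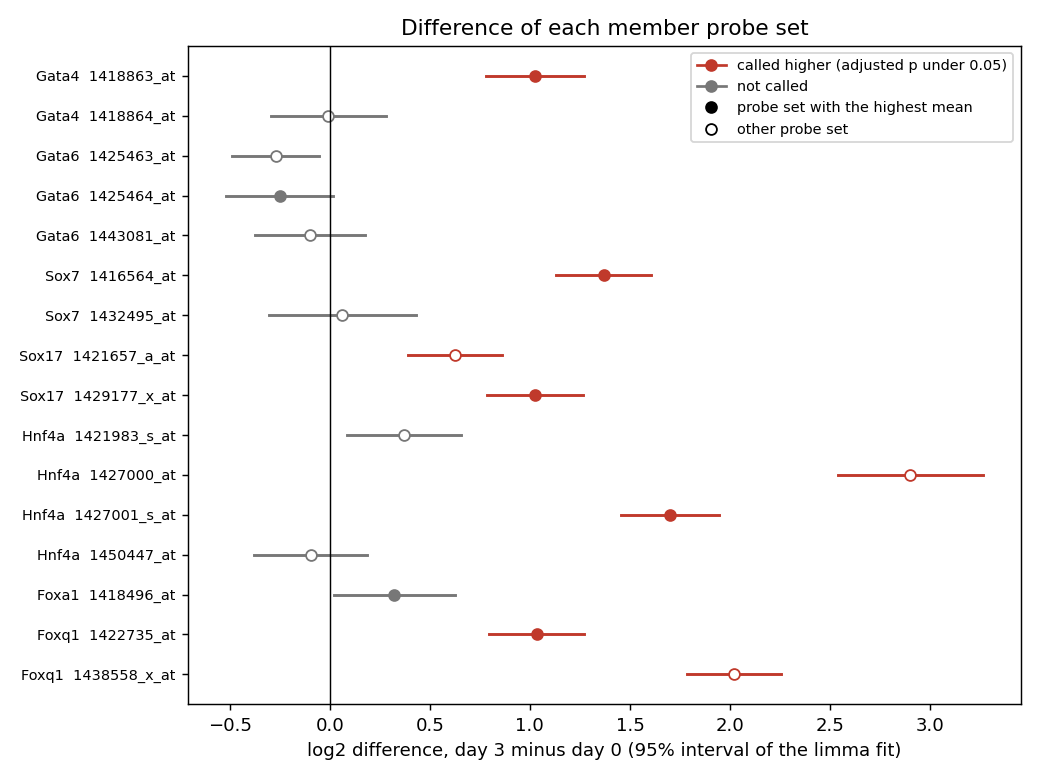
The log2 difference (horizontal axis, day 3 minus day 0) of each of the 16 probe sets is drawn with its 95% interval from the limma fit over all probe sets, red where called and grey where not, filled for the probe set with the highest mean. Probe sets of 1 gene spread most for Hnf4a, from -0.09 to 2.90, the highest with day 0 values below the arrays' first quartile.

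Over all 16 probe sets, 8 were called higher, 0 lower and 8 were not called, while 14.2% of all probe sets were called higher and 16.7% lower. Of the 8 not called, 3 belonged to Gata6, 2 to Hnf4a and 1 each to Gata4, Sox7 and Foxa1. The days did not overlap for 11 of the 16, against 62.2% of all probe sets. When all probe sets of a gene were averaged, differences became 0.51 for Gata4, 0.72 for Sox7, 0.83 for Sox17, 1.22 for Hnf4a and 1.53 for Foxq1, and all 5 stayed called (limma, adjusted p of at most 0.0023).

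The day 3 duplicates were less alike than the day 0 duplicates for Sox7, Sox17, Foxa1 and Foxq1. Replicate 2 was higher than replicate 1 by 0.26 for Sox7, 0.30 for Sox17 and 0.28 for Gata6, whereas replicate 1 was higher by 0.31 for Foxa1, 0.21 for Foxq1 and 0.11 for Hnf4a. At day 0 the duplicates of Sox7 and Sox17 differed by less than 0.01, those of Gata6 by 0.30 and those of Hnf4a by 0.20, more than at day 3. None of these gaps exceeded the 95th percentile of all genes on the same day. With an unmoderated test per gene, which uses each gene's own spread, Gata4 (adjusted p = 0.031) and Hnf4a (0.045) were called and Sox7 (0.057), Foxq1 (0.063) and Sox17 (0.084) were not. Tested against a log2 difference of 1 with limma's treat, Sox7 (adjusted p = 0.038) and Hnf4a (7.8e-04) were called, as were 3.65% of all genes as higher.

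Genes related to the 7 by sequence did not move as one. Of 9 such genes, 2 rose, 2 fell and 5 were not called. These counts are near the shares of all genes, 20.9% called higher and 21.4% called lower. Foxa2, the forkhead gene of node and endoderm, had 9.05 and 9.04 at day 3 and 6.58 and 6.61 at day 0, a difference of 2.45 ± 0.09 (SE, limma adjusted p = 7.6e-09) beside the 0.32 of Foxa1. Foxa3, a forkhead gene of liver and gut, had 6.66 and 6.38 at day 3 and 5.26 and 5.04 at day 0, a difference of 1.37 ± 0.14 (adjusted p = 1.6e-05). Among GATA-type zinc finger genes, Trps1, a transcriptional repressor that acts in skeletal development, fell by 2.73 ± 0.13 on the log2 scale. All 4 of its probe sets were called. Gata3, a trophoblast and T cell factor, fell by 0.75 ± 0.22, with 5.10 and 4.81 at day 3 and 6.11 and 5.31 at day 0. Gata1 (-0.07), Gata2 (-0.30), Gata5 (0.11), the SoxF gene Sox18 (-0.30) and the Hnf4a paralog Hnf4g (0.06) were not called, and Hnf4g was under the first quartile of the arrays at day 3 and day 0. One of the 2 probe sets of Gata2 was called lower (-0.59).

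Of 9 other transcription factor genes of endoderm, 4 rose, 2 fell and 3 were not called. Otx2, which is also on the epiblast list, was among the rises. Lhx1 (3.86), a LIM homeobox gene of anterior endoderm, and Cited1 (3.47), a co-activator gene of visceral endoderm, rose most, while Nr5a2, a nuclear receptor gene shared with naive stem cells, fell by 3.17. Of 12 genes of the FGF and PDGF pathways that act in primitive endoderm, 4 rose and 4 fell, 4 were not called, and the median difference was -0.03. The ligand gene Pdgfa fell by 2.02 and Spry4, a feedback inhibitor, fell by 1.34, while the phosphatase gene Dusp4 rose by 1.65. Pdgfra, the receptor gene of primitive endoderm, was singled out after its values were seen, and had 9.53 and 9.91 at day 3 and 9.05 and 8.75 at day 0, a difference of 0.82 ± 0.13 (SE, limma adjusted p = 4.0e-04).

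Products of visceral endoderm had larger median differences than the factor genes. Of 17 measured genes for secreted proteins, 11 rose, 1 fell and 5 were not called, with a median of 1.58, and Apob (6.79), Ttr (4.32) and Mttp (3.36), which serve lipoprotein assembly and thyroid hormone transport, rose most by the probe sets kept. Several of them, Apob and Mttp included, are known targets of Hnf4a in liver. Of 9 surface and endocytic genes, 8 rose, 0 fell and 1 was not called, with a median of 3.13, led by the receptor gene Cubn (5.86), the tight junction gene Cldn6 (4.56) and the adaptor gene Dab2 (3.69). The mean log2 value of the secreted list was 7.02 to 7.08 on the day 3 arrays and 5.26 to 5.31 on the day 0 arrays, and that of the surface list 10.39 to 10.45 and 7.43 to 7.47. Of the 27 promoter windows analysed for 24 genes of these lists, 3 held AGATAA, 2 TGTTTAC, 2 ACAATG and 0 CAAAGTCCA, the last found in 0.479% of all windows, and these counts are too small to describe the lists.

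Genes of basement membrane and parietal endoderm, to which Sox7 and the GATA factors belong as well, rose for 9 of 15, fell for 3 and were not called for 3, with a median of 0.94. Plat (2.84), a protease gene whose other probe set was not called (0.09), Col4a2 (2.21), a basement membrane collagen gene, and Pth1r (2.12), a hormone receptor gene of parietal endoderm, rose most. Of 8 genes of the anterior visceral endoderm, 3 rose, 1 fell and 4 were not called, with Lhx1, Otx2 (2.02) and Dkk1 (1.67) as the rises. Otx2 is also on the epiblast list, and both Lhx1 and Otx2 are also on the list of other endoderm factors.

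Other cell types that use the same factors were read from marker lists, which share some genes with one another and with the lists above. Eomes is also on the list of other endoderm factors, and Foxa2 is also among the relatives. Cardiac mesoderm genes were not called for 10 of 12, 0 rose and 2 fell, Myh6 by 0.62 and Hand2 by 0.37, and the list's mean log2 value was 5.88 to 5.93 at day 3 and 5.97 to 5.98 at day 0. Of 11 genes of endothelium and blood, 1 rose, 2 fell and 8 were not called. Cd34 rose by 0.84, while Pecam1, also a surface gene of naive stem cells, fell by 2.62 and Tek by 0.70. The mean log2 value of that list was 5.50 to 5.64 at day 3 and 5.77 to 5.79 at day 0. Of 10 genes of primitive streak and definitive endoderm, 6 rose, 0 fell and 4 were not called, with Eomes (2.46), Foxa2 and Fgf8 (1.55) in front. The mean log2 value of the streak list was 6.44 to 6.60 at day 3 and 5.53 to 5.62 at day 0, and its part in the rises of Gata4, Sox17 and Foxq1 was not tested. Trophectoderm genes rose for 2 of 9, fell for 3 and were not called for 4, and fibroblast genes rose for 4 of 10, fell for 1 and were not called for 5.

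**Figure D4:**
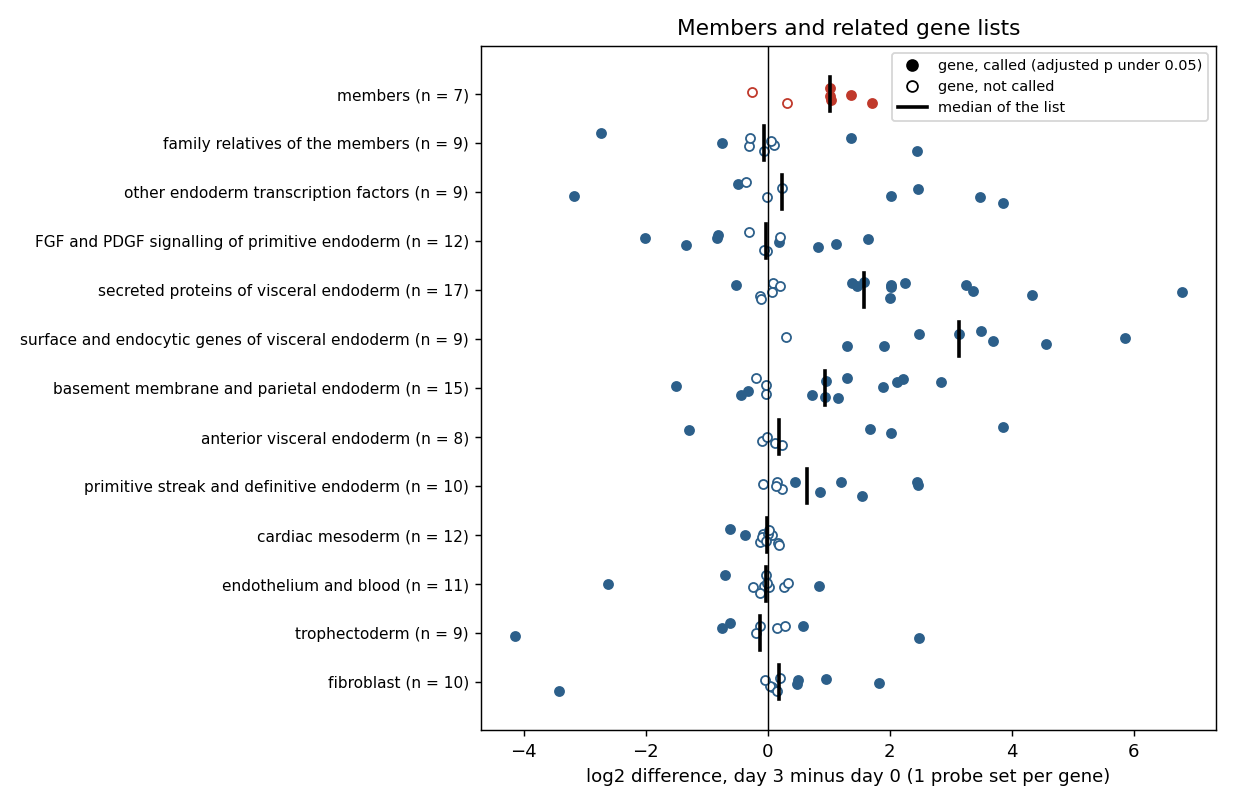
Each point is the log2 difference of 1 gene (horizontal axis, day 3 minus day 0, 1 probe set per gene), filled where called, and the black bars are list medians, with the 7 factor genes in red on the top line. The median is 1.03 for the factor genes, 1.58 and 3.13 for the 2 lists of visceral endoderm products, 0.94 for basement membrane and parietal endoderm, and -0.01 for cardiac mesoderm.

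The genes whose pattern was most like that of Hnf4a over the 4 arrays, by the Euclidean distance between mean-centred log2 values, were Ankrd50 (distance 0.054), Lypd6 (0.062) and Tmc4 (0.078). Their differences were 1.73, 1.68 and 1.72. The likeness rests on 4 arrays of 2 days.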

How the data were processed

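The deposited table holds log2 values made by the authors with RMA in R 2.13.0, per the submitters' processing notes. RMA subtracts background, equalises the distributions of arrays and gives 1 value per probe set. Further settings and a genome build are not given in the sources used here. Total RNA could thus not be compared between days, and differences of dim probe sets are compressed. No detection calls were used.

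Of 45101 probe sets, 64 were controls, and 34945 others had 1 gene symbol. Day 3 was compared with day 0 in R 4.3.3 with limma 3.58.1 (lmFit, eBayes with an intensity trend, no covariate, 2 residual degrees of freedom), once over 18193 genes and once over 45037 probe sets, with two-sided tests and Benjamini-Hochberg adjustment over each whole table. Called means an adjusted p under 0.05. For every list count the background is the share of all genes called, 20.9% higher and 21.4% lower. Named genes are the 7 members, their relatives, and up to 3 called genes with the largest difference per list, plus Pdgfra and the 3 genes nearest to Hnf4a. Gata1, Gata2, Gata5, Sox18 and Hnf4g are named as relatives. The members and lists were chosen with earlier results of these data known. On simulated data for this comparison over 18193 genes, 54% of 50 genes changed by 0.5, 94% of 50 changed by 1 and 100% of 50 changed by 2 (log2) were called. The simulation left 17993 genes unchanged, whereas the measured arrays gave calls for 42.3%. Benjamini-Hochberg adjustment is stricter where few genes change, so these recovery shares do not give the power for the 7 genes. Alternatives covered the variance model, normalization, a level filter, the choice of probe sets, the threshold, the replicate number as a block and each array left out.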

Additional observations from a re-analysis of the deposited data

How the results depend on the processing

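The 5 rises kept their direction in the alternatives that tested them, except that of Hnf4a without the probe sets ending in _x_at or _s_at. There the gene was represented by 1450447_at (-0.095, not called). Its called probe set 1427000_at has neither suffix, but was dimmer on average and so did not stand for the gene. Counts of the 7 genes called higher were 2 with the unmoderated test (2149 genes called in all, against 7703) and 2 against a log2 difference of 1 (1136 in all), and with the unmoderated test 2 of 16 probe sets were called in place of 8. The median difference of the 7 genes was 0.72 when all probe sets of a gene were averaged and 0.63 without the probe sets ending in _x_at or _s_at. With 1 array left out, 5 to 6 genes were called higher and 0 to 1 lower, the median was 1.02 to 1.03, 8 to 9 probe sets were called and 5848 to 7440 genes in all. The 1 gene called lower was Gata6, without day 0 replicate 2. Dim probe sets changed sign when an array of replicate number 2 was left out, and with each array left out in turn 1418864_at of Gata4 ranged from -0.094 to 0.081 and 1432495_at of Sox7 from -0.12 to 0.25. Among genes above the median level Gata4 and Foxa1 were not tested, since only 44.6% and 39.3% of genes had a smaller mean. Of the other 5 genes, 4 were called higher. The cause of the changes with single arrays left out was not tested.

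The replicate numbers do not pair the samples by the labels, and deviations of same-numbered samples from their day means correlated at -0.02 across genes, with 2 pairs. With the replicate number as a block, 5 genes were called higher, 0 lower, 8 of 16 probe sets and 7660 genes in all, and the median was 1.03. Levels near the arrays' first quartile of 4.32 cannot be told from background here, which limits 1418864_at, 1443081_at, 1432495_at and 1421983_s_at, and at day 0 also 1427000_at, whose difference of 2.90 is therefore uncertain in size. Nor does a detection call show signal above background near the arrays' medians of 5.78 to 5.79. At day 0 that covers 1450447_at of Hnf4a, 1418496_at of Foxa1, 1418863_at of Gata4 and 1438558_x_at of Foxq1.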
